A study of Homo sapiens with 3 samples.

Results

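A small population of cells in droplet single-cell RNA profiles of H1 cultures, guided from an established human embryonic stem cell line to the beta cell fate, carried RNA of the transcription factors TFAP2B, TFAP2A and GATA3 and the chemokine CXCL14. The libraries were labelled KO (PAX6-/-, homozygous), HET (PAX6+/-, heterozygous) and WT (unedited), with 1 library per genotype, and all were labelled as beta cells. PAX6 is a transcription factor of the eye, brain and islet. Not given in the sources used here were the position of the PAX6 lesion, the number of clones behind each genotype and the transcript end that was read. Genotype, library and differentiation therefore cannot be told apart, and no difference between genotypes has a replicate check.

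A cell was chosen when its barcode had 1000 to 40000 UMIs (counted RNA molecules), at least 500 genes, at most 20% mitochondrial UMIs and under 5 CHGA UMIs per 10000, together with at least 1 TFAP2B UMI and at least 3 UMIs of CXCL14, GATA3 and TFAP2A combined. CHGA encodes chromogranin A, a secretory granule protein of endocrine cells. The rule chose 582 of 29021 barcodes, of which 100 were in KO, 482 in HET and 0 in WT. They are called ectoderm-like below, a name checked against marker lists further on. They are set against the other cells that passed the same quality limits and had low CHGA, which numbered 7302 in KO, 7064 in HET and 6600 in WT.

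TFAP2 factors and GATA3 are among the regulators that switch on the surface ectoderm program in non-neural ectoderm, the sheet that gives rise to epidermis and, with neighbouring tissue, to sensory placodes. The same factors act in amnion and trophoblast, so they do not name a tissue on their own. TFAP2A and TFAP2B also act in neural crest. None of these tissues comes from the definitive endoderm, from which pancreas, liver and intestine arise.

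The libraries held 9726 barcodes and 145948590 UMIs in KO, 9628 and 136834433 in HET, and 9667 and 140068492 in WT. The median ectoderm-like cell had 14980.5 UMIs in KO and 16413.5 in HET, against 15627.5 and 13849 in the other CHGA-low cells of KO and HET. Its mitochondrial share had a median of 7.11% in KO and 7.15% in HET, against 5.39% and 6.15% in the other CHGA-low cells. No barcode of an ectoderm-like cell was shared between KO and HET cells of the population, although 30 barcodes occurred in both libraries. PAX6 UMIs were found in 49.4% of CHGA-high cells of KO, 53.9% of HET and 56.9% of WT, so PAX6 RNA was present in all libraries and its count does not check the labels.

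Ectoderm-like cells made up 1.15% of the 8681 cells passing the quality limits in KO (0.938 to 1.40) and 5.81% of 8294 in HET (5.32 to 6.34). In WT they were 0 of 8488, which allows a share of up to 0.0353% when 3 counts are taken as the floor, and up to 0.0435% by the exact interval. The intervals in brackets are exact binomial (Clopper-Pearson, 95%), and like the floor and all intervals below they cover counting error only. With every cell thinned to 5000 UMIs the share was 0.788% in KO and 3.83% in HET, and 0% in WT. The values of the rule's own genes chose these cells, so the shares are a description of what the rule finds in each library.

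Before any limit was applied, TFAP2B had 841 UMIs in 149 barcodes of KO, 3984 UMIs in 895 barcodes of HET and 8 UMIs in 5 barcodes of WT. No WT barcode held more than 2 TFAP2B UMIs, and the 5 that passed the quality limits were all CHGA-high. CHGA-low cells with at least 3 UMIs of the other 3 genes numbered 131 in KO, 614 in HET and 5 in WT.

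**Figure D1:**
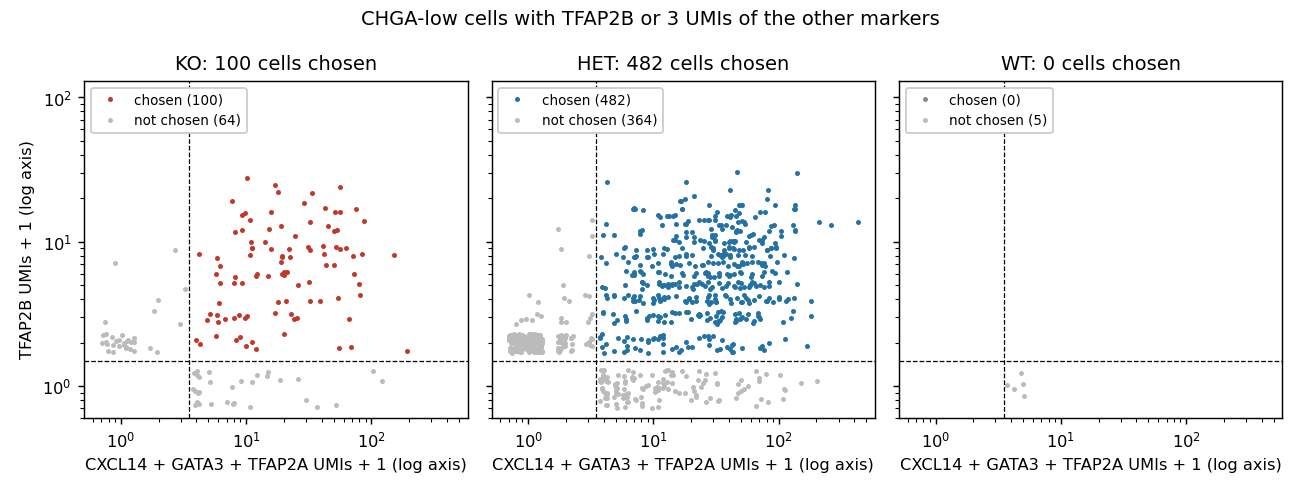
TFAP2B UMIs (y axis) against the summed UMIs of CXCL14, GATA3 and TFAP2A (x axis), both plus 1 on log axes with a small random shift, for CHGA-low cells that have TFAP2B or at least 3 of the other UMIs. Dashed lines mark the rule; 100 KO cells, 482 HET cells and 0 WT cells lie in the upper right field.

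Cells lay on both sides of the rule's limits. Just inside it, 3 KO cells and 17 HET cells had TFAP2B with exactly 3 UMIs of the other genes, and just outside it 3 KO cells and 14 HET cells had exactly 2. On the TFAP2B side, 12 KO cells and 57 HET cells had 1 UMI, while 31 KO cells and 132 HET cells had none but reached 3 UMIs of the others. A further 24 KO cells and 176 HET cells held 1 TFAP2B UMI and none of CXCL14, GATA3 or TFAP2A. The cluster described below, which held nearly all chosen cells, also held many that the rule left out. It took in 14 of the 31 KO cells and 103 of the 132 HET cells that lacked TFAP2B, and 3 of 3 KO cells and 7 of 14 HET cells with 2 UMIs of the other genes. It held none of the 24 KO cells and 2 of the 176 HET cells with TFAP2B alone. Inside the rule it held 12 of 12 KO cells and 52 of 57 HET cells with 1 TFAP2B UMI.

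TFAP2B (chromosome 6, 50818723 to 50847613, plus strand) had a median of 6 UMIs per ectoderm-like cell in KO (range 1 to 27) and 5 in HET (1 to 29). CXCL14 (chromosome 5, 135570679 to 135579279, minus strand), a chemokine made by many epithelia, varied most, with a median of 8.5 UMIs in KO (0 to 183) and 20 in HET (0 to 418). GATA3 (chromosome 10, 8045378 to 8075203, plus strand) had a median of 3 UMIs in both KO (0 to 12) and HET (0 to 14). TFAP2A (chromosome 6, 10393186 to 10419659, minus strand) also had a median of 3 in both, with a highest cell of 19 in KO and 16 in HET. These positions are those of GENCODE 29 on GRCh38. All 4 distributions, which the rule itself shaped, overlapped between KO and HET.

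GABRP (chromosome 5, 170763350 to 170814047, plus strand), the pi subunit of the GABA-A receptor, was the fifth marker named for these cells but not part of the rule. It was found in 54% of KO ectoderm-like cells (43.7 to 64.0) and 76.3% of HET ones (72.3 to 80.1). Its level was 113 CPM in KO ectoderm-like cells against 0.383 CPM in the other CHGA-low cells of KO, and 241 CPM in HET ectoderm-like cells against 6.30 CPM in the others of HET. CPM are counts per unit of depth, taken from UMIs summed over the cells of a group and scaled with TMM factors. In the other CHGA-low cells of WT GABRP was at 0.0208 CPM. Between the genotypes, KO ectoderm-like cells held 0.470 of the HET level of GABRP (0.404 to 0.544).

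PAX6 was near its detection limit in the population. It was found in 4 of 100 KO ectoderm-like cells and 13 of 482 HET ones, at 4.01 CPM in KO and 1.73 CPM in HET, against 2.38 and 2.17 CPM in the other CHGA-low cells of KO and HET. CHGA, which the rule kept low in both groups, stood at 60.7 CPM in KO ectoderm-like cells and 47.7 CPM in HET ones, against 75.2 and 61.5 CPM in the others.

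The ectoderm-like cells also lay together when the rule's genes were withheld. Clustering of all CHGA-low cells without TFAP2A, TFAP2B, CXCL14, GATA3, GABRP and CHGA gave 15 clusters, and 1 of them held 98 of the 100 KO cells and 469 of the 482 HET cells. That cluster had 123 cells in KO, 623 in HET and 0 in WT. Its remaining 25 KO cells and 154 HET cells fell outside the rule but carried CXCL14 at 1197 CPM in KO and 866 CPM in HET, and GABRP at 65.5 and 155 CPM, in CPM without TMM scaling. Counted by the cluster, the population was 1.42% of KO cells and 7.51% of HET cells passing the quality limits. Since the cells were clustered on their own values, the position of the cells is a description.

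Among the other 14 clusters the nearest were a mitotic cluster led by TOP2A, AURKB and RRM2, and a cluster led by POSTN, CDH12 and SHH. Pearson's r of log2 CPM with the ectoderm-like cells over 8875 genes was 0.875 for the mitotic cluster and 0.868 for the POSTN cluster, against 0.980 for the cells of their own cluster outside the rule. These correlations run across genes, which are not independent, and share the housekeeping background of all cells. The lowest was 0.764, for a cluster led by CUBN, SLC13A2 and APOA2.

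Across all genes with at least 50 CPM in 1 of the groups compared in each library, 225 of 3500 were at least 2-fold higher in ectoderm-like cells than in other CHGA-low cells in both KO and HET, a share of 6.43%, and 408 were at least 2-fold lower, 11.7%. Taken singly, KO had 8.61% of 3680 genes higher and 14.6% lower, and HET had 7.4% of 3675 higher and 12.5% lower. No gene was 2-fold higher in 1 library and 2-fold lower in the other. The ratios of KO and HET had a Pearson's r of 0.968 across these genes, which share the rule that chose the cells. The median log2 ratio over all genes tested was -0.05 in KO and -0.05 in HET.

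**Figure D2:**
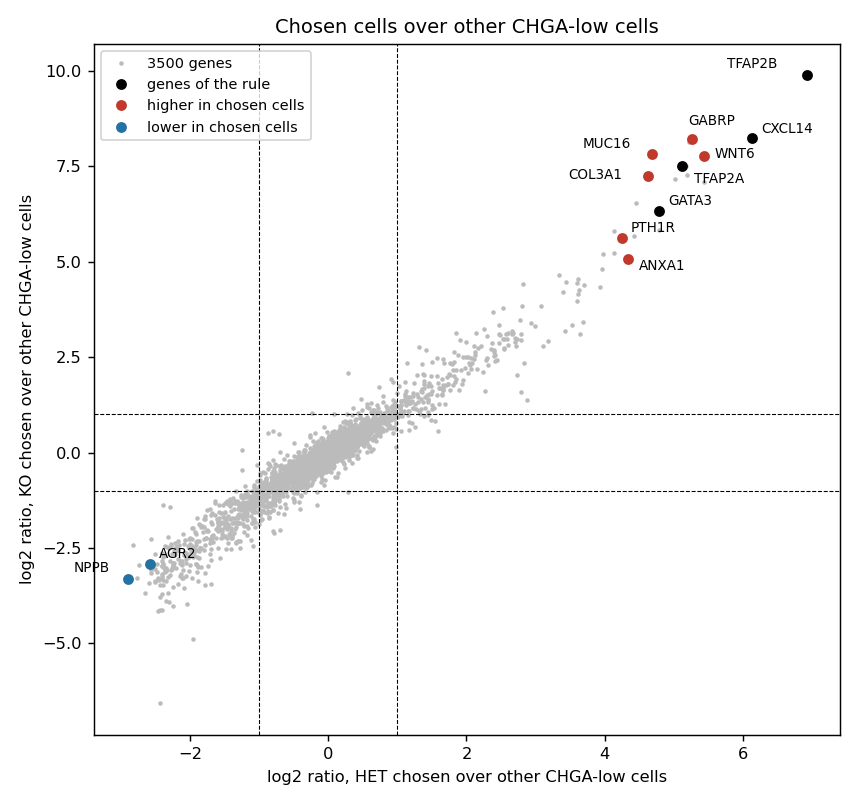
Log2 ratio of ectoderm-like (chosen) cells over other CHGA-low cells in KO (y axis) against HET (x axis) for 3500 genes, each a point. Genes of the rule are black, and dashed lines mark 2-fold; the points lie along 1 diagonal, with GABRP, WNT6 and MUC16 near the rule's genes at the upper right and NPPB and AGR2 at the lower left.

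The genes that stood highest outside the rule were named by the smaller of the KO and HET ratios. They are given here by the kind of protein, not by rank. Among surface and secreted proteins, VTCN1, an inhibitory ligand of the B7 family, was at 119 CPM in KO and 141 CPM in HET ectoderm-like cells, against 0.424 and 3.78 CPM in the other CHGA-low cells, a ratio of 281 in KO (206 to 388) and 37.3 in HET (33.3 to 41.8). WNT6, a secreted WNT ligand of surface ectoderm, was at 114 CPM in KO and 86.6 CPM in HET ectoderm-like cells against 0.522 and 2.01 CPM in the others, a ratio of 219 in KO and 43.1 in HET. GAS1, a membrane-anchored co-receptor of hedgehog ligands, was 181-fold higher in KO and 36.3-fold higher in HET. MUC16, a transmembrane mucin of wet epithelial surfaces, was 228-fold higher in KO and 25.6-fold higher in HET, and it was found in 77% of KO and 62.7% of HET ectoderm-like cells.

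Among receptors and channels, GRIA4, a subunit of AMPA-type glutamate receptors, was 136-fold higher in KO and 43.4-fold higher in HET. PTH1R, the receptor of parathyroid hormone and its related peptide, was at 137 CPM in KO and 108 CPM in HET ectoderm-like cells against 2.76 and 5.66 CPM in the others. ACKR3, a scavenging receptor of the chemokine CXCL12, was 55.9-fold higher in KO and 17.6-fold higher in HET. KCNG1, a modifying subunit of voltage-gated potassium channels, was 21.7-fold and 12.1-fold higher. The Iroquois transcription factors IRX3 and IRX2 were 57.0-fold and 37.4-fold higher in KO, and 27.7-fold and 17.6-fold higher in HET.

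Among matrix genes and growth factors, COL3A1, a fibrillar collagen, was at 188 CPM in KO and 292 CPM in HET ectoderm-like cells against 1.23 and 11.8 CPM in the others. SPARC, a matrix-binding glycoprotein, was at 338 CPM in KO and 332 CPM in HET against 16.2 and 25.6 CPM, and was found in 97% and 96.9% of the cells. PDGFC, a platelet-derived growth factor, was 19.2-fold higher in KO and 12.3-fold higher in HET. EFEMP1, a fibulin of elastic matrix, was 17.9-fold and 12.3-fold higher. ANXA1, a phospholipid-binding annexin abundant in epithelia, had the highest level of the 24, at 936 CPM in KO and 715 CPM in HET against 27.7 and 35.3 CPM in the others. The rest of the 24 genes were CAMK4, PART1, FNDC5, C1orf21, PPP2R2B, TRMT9B, SEMA5A and TMEM54, with ratios of 154, 145, 92.8, 51.1, 36.8, 28.0, 20.3 and 23.3 in KO.

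**Figure D3:**
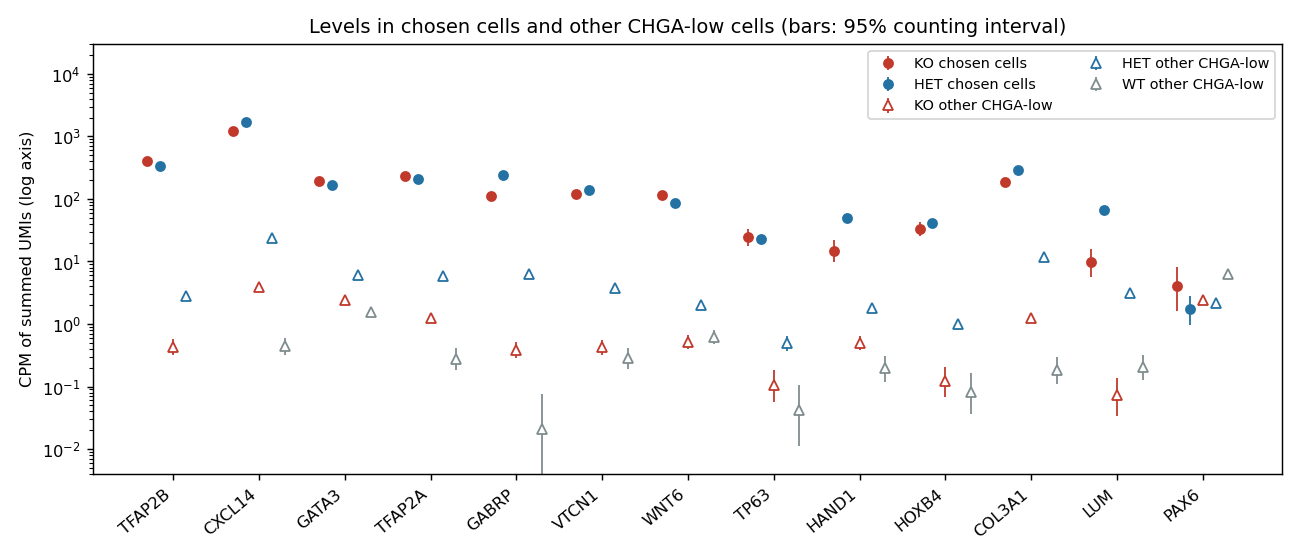
CPM of summed UMIs (log axis) of 13 genes in ectoderm-like (chosen) cells (filled circles) and other CHGA-low cells (open triangles), with 95% Poisson counting intervals. The first 4 genes are the rule's own and TFAP2B is not drawn for WT, where it was at 0 CPM. GABRP, VTCN1, WNT6, TP63, HAND1, HOXB4, COL3A1 and LUM lie more than 10-fold above the others of the same library, and PAX6 does not.

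The other CHGA-low cells of HET held more of these UMIs than those of KO, as the levels of VTCN1 and GABRP show, and the HET ratios were smaller. These others included the cells of the ectoderm-like cluster that fell outside the rule, 154 from HET but only 25 from KO. With that cluster set aside, the HET others held GABRP, VTCN1 and COL3A1 at 3.30, 1.47 and 3.68 CPM, without TMM scaling. For the KO others these were 0.233, 0.258 and 1.04. All 6 values lie below the levels given above, and the HET ones remained the higher. HET CHGA-high cells, which are endocrine, also had TFAP2B UMIs in 7.22% of cells, against 0.625% in KO and 0.265% in WT. The share with a GABRP UMI was 8.69% in HET CHGA-high cells, against 0.782% in KO and 0% in WT, with median depths of 12578, 12514 and 12876.5 UMIs. Thinned to 5000 UMIs, the GABRP share of CHGA-high cells was 0% in KO, 3.82% in HET and 0% in WT, against 31% of KO and 52.6% of HET ectoderm-like cells. The part of free RNA and of doublets in the HET shares was not tested.

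The promoter stretch of WNT6, the surface ectoderm ligand of the list, and that of TFAP2A, 1 of the factors that define the cells, are shown because TFAP2 proteins bind GCCNNNGGC. The sequences are the 250 bases before the start of each gene from RefSeq (GRCh38.p14), 5' to 3' on the gene's strand, with matches to the motif in capitals. WNT6 lies at chr2:218859555-218859804 on the plus strand and TFAP2A at chr6:10419660-10419909 on the minus strand.
WNT6: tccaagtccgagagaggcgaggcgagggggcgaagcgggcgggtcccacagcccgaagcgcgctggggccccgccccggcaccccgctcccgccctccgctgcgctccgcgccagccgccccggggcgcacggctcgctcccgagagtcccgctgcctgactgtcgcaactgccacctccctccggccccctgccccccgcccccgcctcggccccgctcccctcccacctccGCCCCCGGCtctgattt
TFAP2A: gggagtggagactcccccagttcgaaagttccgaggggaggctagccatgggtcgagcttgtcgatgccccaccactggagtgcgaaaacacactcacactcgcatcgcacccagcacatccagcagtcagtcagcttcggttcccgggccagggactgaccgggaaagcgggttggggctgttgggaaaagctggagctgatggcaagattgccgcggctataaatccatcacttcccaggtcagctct
WNT6 had 1 match, beginning at -17 from the start, and TFAP2A had none in this window. The motif reads the same on both strands and was the only one searched. It was present in 5 of the 22 promoters (22.7%) listed for 15 of the 24 genes highest in ectoderm-like cells, against 19.8% of all 35116 promoters of the same length. The share among the genes was thus near that of all promoters, and a match is a run of letters, not a bound site.

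The surface ectoderm label was read from a list of 17 genes. With at least 5 CPM in 1 of the groups, 11 of 12 genes were at least 2-fold higher in KO ectoderm-like cells than in the others, and 10 of 13 in HET, with none lower, against 11.6% of all genes higher in KO and 9.5% in HET at that level. The median log2 ratio of the list was 3.78 in KO and 3.43 in HET. TP63, the master regulator of stratified epithelium, was at 24.6 CPM in KO and 22.7 CPM in HET against 0.106 and 0.497 CPM in the others, and was found in 34% of KO and 31.1% of HET ectoderm-like cells. DLX3 and DLX5, homeobox factors of epidermis and placode, were 61.7-fold and 74.9-fold higher in KO, and 28.5-fold and 25.1-fold higher in HET. GRHL3, a factor of epidermal barrier formation, was 17.5-fold higher in KO and 10.8-fold in HET, and CDH3, P-cadherin, 7.47-fold and 6.48-fold. The keratins of basal and stratified epidermis KRT5, KRT14 and KRT17 were below 5 CPM in these cells, as was DLX6, while KRT15 was at 15.4 CPM in KO and 8.31 CPM in HET ectoderm-like cells.

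The amnion list of 9 genes shared TFAP2C with the surface ectoderm list and also held GABRP. In KO, 6 of 9 genes were higher and 1, IGFBP3, was lower, and in HET 6 of 9 were higher and none lower. The median log2 ratio of the amnion list was 3.66 in KO and 1.92 in HET. That of the surface ectoderm list was 3.78 and 3.43, so the 2 lists stood close in KO. Among all genes at 5 CPM, 11.6% were higher and 14.7% lower in KO, and 9.5% and 11.8% in HET. HAND1, a factor of amnion and early heart, was at 14.9 CPM in KO and 50.3 CPM in HET ectoderm-like cells against 0.497 and 1.83 CPM. ISL1, used as an early amnion marker, was at 6.87 CPM in KO and 15.5 CPM in HET, against 3.64 and 6.85 CPM. The 12 trophoblast genes, among them the hormone genes CGA and CGB3 and the fusion gene ERVW-1, were all below 5 CPM. Their summed level was 6.29 CPM in KO and 8.19 CPM in HET ectoderm-like cells, against 4.04, 5.72 and 11.0 CPM in the other CHGA-low cells of KO, HET and WT. Both lists stood high in the summed population. After thinning to 5000 UMIs, TP63 was found in 54 and HAND1 in 69 of 479 HET cells, and both in 6. In KO, TP63 was found in 12 and HAND1 in 5 of 100 cells, and both in none. The correlation of their log2 UMIs was -0.04 in HET and -0.08 in KO. Counts this sparse cannot tell whether TP63 and HAND1 lie in separate cells. In KO over HET ectoderm-like cells, 4 of 9 amnion genes and 1 of 13 surface ectoderm genes were at least 2-fold lower and none higher, against 2.82% of all genes at 5 CPM lower and 1.51% higher.

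Markers of other ectodermal cells were sparser. The counts here stand beside shares of all genes at 5 CPM of 11.6% higher and 14.7% lower in KO. In HET these shares were 9.5% and 11.8%. Of the cranial placode list, 5 of 6 genes were higher in KO and 3 of 4 in HET, including EYA1, a transcriptional co-activator of placodes, 60.8-fold and 55.1-fold. In each library 1 gene was lower, with a log2 ratio of -3.18 in KO and -2.41 in HET. The summed level of the list was lower in ectoderm-like cells, at 77.2 CPM in KO and 77.7 CPM in HET, against 180 and 121 CPM in the others. OTX2, PAX2 and PAX8 were below 5 CPM. In the neural crest list SNAI2 was higher in both, at 13.7 CPM in KO and 7.27 CPM in HET ectoderm-like cells, and SOX10, FOXD3, PAX3 and PAX7 were below 5 CPM. S100B passed 5 CPM in KO, where all 16 of its UMIs came from 1 cell. SOX2, a neural and foregut factor, was at 7.44 CPM in KO and 5.54 CPM in HET, and SOX1, LHX2 and RAX were below 5 CPM. The endothelial and immune lists, 6 and 7 genes, had none above 5 CPM. Of the distal nephron and ureteric bud list, where TFAP2B and GATA3 also act, 5 of 18 genes passed 5 CPM, with 3 higher and 1 lower in KO and 2 higher and 2 lower in HET.

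The endoderm programs of the other CHGA-low cells were low in the ectoderm-like cells. Of the pancreas and gut factors, 13 of 14 were at least 2-fold lower in KO and 13 of 13 in HET, with none higher, against 14.7% and 11.8% of all genes lower. PDX1, the pancreatic homeobox factor, was at 5.15 CPM in KO and 15.8 CPM in HET ectoderm-like cells, against 50.3 and 68.6 CPM in the others. The pioneer factor FOXA2 was at 0.138 of the others in KO and 0.228 in HET, and GATA4 and GATA6 at 0.124 and 0.118 in KO and 0.217 and 0.206 in HET. All 10 liver genes were lower in both libraries, including the fibrinogen chain FGB at 425 CPM in KO and 709 CPM in HET against 4335 and 3881 CPM. All 5 detected intestinal genes were lower as well, including CDX2 at 0.160 in KO and 0.176 in HET.

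Among the 12 genes that stood lowest were NPPB, AKR1C2, UGT2B11, TDO2, UGT3A1, COL14A1, AGR2, NR5A2, GDF15, STXBP5L and NEFL, at 0.0927 to 0.135 of the others in KO and 0.134 to 0.176 in HET. NPPB encodes a natriuretic peptide, AKR1C2, UGT2B11 and TDO2 are metabolic enzymes, and AGR2 is a disulfide isomerase of mucus-secreting gut cells. AGR2 was at 52.1 CPM in KO and 98.5 CPM in HET ectoderm-like cells against 391 and 588 CPM in the others. NR5A2, a nuclear receptor of liver and pancreas, was at 6.87 and 8.89 CPM against 61.0 and 52.6 CPM.

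The endoderm ratios of ectoderm-like over other CHGA-low cells moved when cells of high doublet score were removed. Scrublet called no doublet in any library and so gave no usable calls. When the 8% of cells with the highest scores were removed from each library, which took 8 of the 100 KO cells and 76 of the 482 HET cells, the median log2 ratio of the liver list was -3.71 in KO and -3.51 in HET, against -2.75 and -2.27 with all cells. That of the pancreas and gut factors was -3.91 in KO and -3.36 in HET, against -3.03 and -2.16. The removal also took other CHGA-low cells, leaving 6761 of 7302 in KO and 6595 of 7064 in HET. Both sides of each ratio therefore changed. FGB UMIs were found in 88% of KO and 88.6% of HET ectoderm-like cells, and in 86.5% and 89.7% of the endocrine CHGA-high cells. Thinned to 5000 UMIs these shares were 53% and 63.3% in ectoderm-like cells, and 65.6% and 67.8% in CHGA-high cells, so FGB in ectoderm-like cells was at or below the share in endocrine cells. The parts of doublets and free RNA in these values were not tested.

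The HOX genes, homeobox factors that mark position along the body, were higher in the ectoderm-like cells wherever they differed. Of 39 genes, 12 passed 5 CPM in KO and all 12 were higher in ectoderm-like cells, and 10 of 11 were in HET. The share of all genes higher at that level was 11.6% in KO and 9.5% in HET. They were anterior genes of the HOXA and HOXB groups, among them HOXB1 to HOXB7. HOXB4 was at 33.2 CPM in KO and 41.6 CPM in HET against 0.122 and 0.994 CPM in the others, and was found in 36% and 49.6% of ectoderm-like cells. HOXB1 was 170-fold higher in KO and 41.3-fold in HET. No gene of the HOXC or HOXD group reached 5 CPM, nor did HOXA9, HOXA10 or HOXA13. HOXA3 was the exception in HET, at 15.2 CPM against 9.95 CPM.

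Ectoderm-like cells carried more cell cycle RNA. Of 16 mitosis and DNA replication genes, 14 were higher in KO and 15 in HET, with a median log2 ratio of 2.48 and 2.21 and none lower. The share of all genes higher at 5 CPM was 11.6% in KO and 9.5% in HET. MKI67 was at 177 CPM in KO and 161 CPM in HET against 17.5 and 29.1 CPM, and TOP2A at 268 and 288 CPM against 33.7 and 50.1 CPM. Thinned to 5000 UMIs, 26% of KO and 33.0% of HET ectoderm-like cells held an MKI67 UMI, against 4.02% and 5.95% of the other CHGA-low cells. The genes outside the 2-fold limit in KO were MCM2, 1.66-fold, and TYMS, 1.99-fold, and in HET MCM2, 1.73-fold.

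Epithelial genes were present. EPCAM, an adhesion molecule of simple epithelia, was found in 96% of KO and 98.1% of HET ectoderm-like cells, at 374 and 421 CPM against 644 and 741 CPM in the others. KRT19 was found in every ectoderm-like cell. KRT7 was at 86.4 CPM in KO and 103 CPM in HET against 33.2 and 14.1 CPM, and KRT23 was 158-fold and 25.7-fold higher. Of the 16 epithelial genes detected, 7 were higher in KO and 4 in HET, and none lower, against 11.6% and 9.5% of all genes higher. GRHL2, a factor of epithelial junctions, was 6.98-fold and 5.17-fold higher. The hemidesmosome integrin ITGB4 was 10.4-fold higher in KO and 6.92-fold higher in HET, while FN1, fibronectin, was at 0.130 and 0.231 of the others.

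Fibrillar matrix genes were also present. In each library 6 of 8 detected mesenchyme genes were higher, namely COL1A1, COL1A2, COL3A1, DCN, LUM and ACTA2, and PDGFRB was lower. All genes at 5 CPM were higher in 11.6% of cases in KO and 9.5% in HET, and lower in 14.7% and 11.8%. The mesenchymal factors TWIST1, TWIST2 and PRRX1 and the receptor PDGFRA were below 5 CPM. DCN and LUM, small proteoglycans that bind collagen, were found in 11% and 8% of KO ectoderm-like cells and in 30.1% and 34.4% of HET ones.

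**Figure D4:**
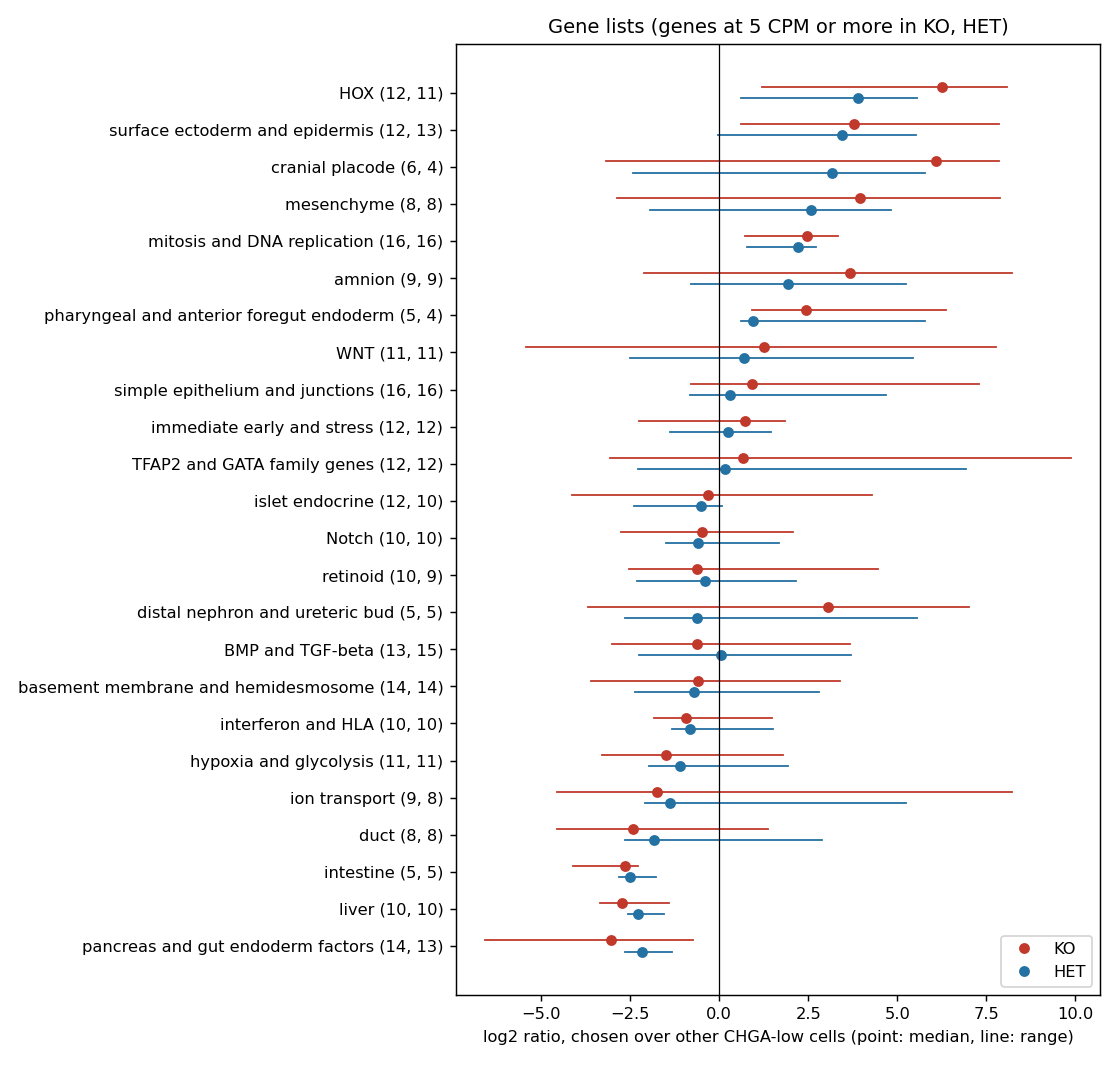
Log2 ratio of ectoderm-like (chosen) cells over other CHGA-low cells for each gene list with at least 3 genes at 5 CPM in both libraries, KO above HET. Points are list medians and lines run from the lowest to the highest of the list's genes at 5 CPM. The numbers of these genes in KO and HET are in brackets. HOX, cranial placode, mesenchyme, surface ectoderm and amnion have the highest KO medians. The intestine, liver and pancreas and gut lists have the lowest medians in both libraries.

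Within the ectoderm-like cells the matrix genes came with other genes of the set. The cells were split by the summed UMIs of COL3A1, LUM and DCN after thinning to 5000 UMIs, a split chosen after the values were seen. In HET, GABRP was found in 80.1% of 151 cells with at least 3 such UMIs (72.9 to 86.2) and in 29.8% of 181 cells with none (23.3 to 37.1). HAND1 was found in 29.8% of the first cells and 2.76% of the second. WNT6 ran the other way, in 21.2% of the matrix-rich cells and 42.5% of those without, and so did MUC16, in 27.2% and 43.6%. TP63 was found in 7.95% and 12.7%. The liver gene FGB also moved with the split in HET, found in 54.3% of the matrix-rich cells (46.0 to 62.4) and 72.4% of those without (65.3 to 78.7), and its part in these differences was not tested. In KO the FGB shares were 66.7% and 53.1%.

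In KO only 9 cells were matrix-rich, against 64 with none of these UMIs. GABRP was found in 6 of the 9 and in 21.9% of the 64, HAND1 in 2 of the 9 and in none of the 64, and MUC16 in 2 of the 9 and 60.9% of the 64. WNT6 was found in 55.6% and 48.4%. The intervals of the 9 KO cells were wide (29.9 to 92.5 for GABRP, against 12.5 to 34.0 in the 64 cells). Over the 479 HET cells thinned to the same depth, the correlation of log2 GABRP and COL3A1 UMIs was 0.43 and that of HAND1 and LUM 0.35. Both values rest on sparse counts.

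**Figure D5:**
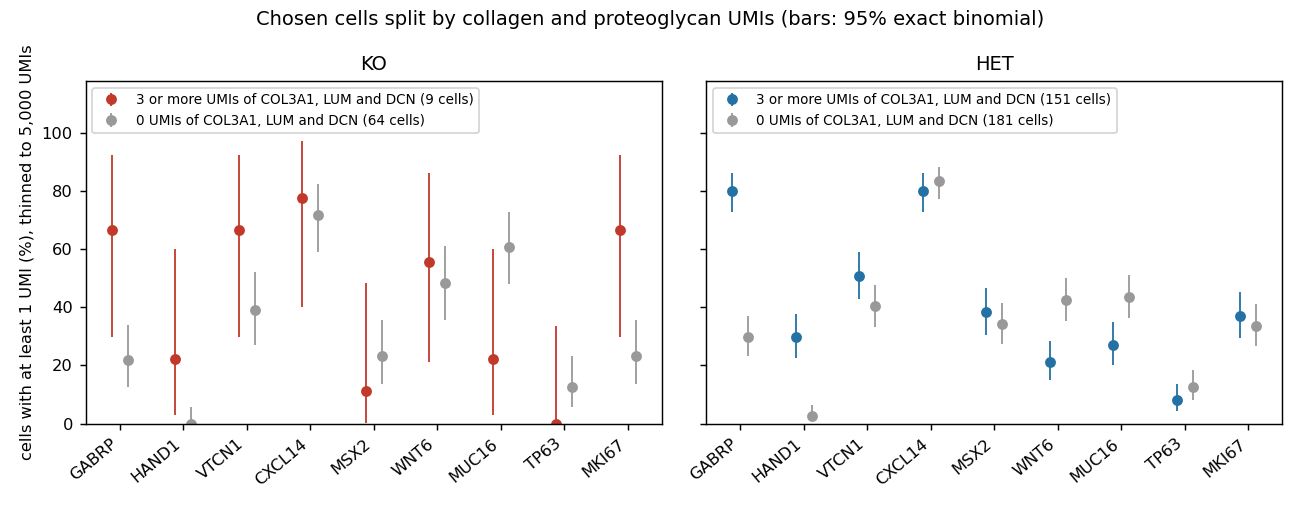
Percent of ectoderm-like (chosen) cells with at least 1 UMI of each gene, after thinning to 5000 UMIs, in cells with at least 3 UMIs of COL3A1, LUM and DCN (coloured) and in cells with 0 (grey), in KO (left) and HET (right), with 95% exact binomial intervals. GABRP and HAND1 stand higher and WNT6 and MUC16 lower in the matrix-rich HET cells, while WNT6 does not stand lower in those of KO. The intervals cover counting over cells of 1 library only, and the split was chosen after the values were seen. The 9 matrix-rich KO cells have wide intervals.

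Signalling genes of the lists moved in both directions. WNT7B was 50.1-fold higher in KO and 27.3-fold in HET, and WNT6 is given above, while the WNT inhibitor DKK1 rested on 1 UMI in KO ectoderm-like cells, 0.0232 of the others (0.000588 to 0.129), and was at 0.175 of the others in HET. BMP4 was 12.7-fold and 3.78-fold higher, and MSX2, a homeobox target of BMP signalling, was at 52.6 CPM in KO and 90.0 CPM in HET against 4.89 and 6.98 CPM. BMP2 was at 0.124 and 0.208 of the others. Of the retinoid list, 3 of 10 genes were higher and 4 lower in KO, and 3 of 9 higher and 2 lower in HET. The shares of all genes were 11.6% higher and 14.7% lower in KO, and 9.5% and 11.8% in HET. The higher retinoid genes were the binding proteins CRABP1 and CRABP2 and the receptor RARB, and ALDH1A1, which makes retinoic acid, was at 0.177 and 0.203 of the others. The list medians were 1.27 and 0.70 for WNT, -0.64 and 0.04 for BMP and TGF-beta, and -0.61 and -0.41 for retinoid genes, in KO and HET in that order.

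Ectoderm-like cells of KO and HET differed in few genes. Of 3198 genes with at least 50 CPM in 1 of them, 6 were at least 2-fold higher in KO (0.188%) and 27 at least 2-fold lower (0.844%). In the other CHGA-low cells the same comparison gave 13 higher (0.388%) and 26 lower (0.776%) of 3349. Of the 27 genes lower in KO ectoderm-like cells, 5 were also at least 2-fold lower in KO in the other cells, where 0.776% of all genes were. Of the 6 higher genes 0 were also higher there, against 0.388% of all genes.

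Of the 8 genes named as lower in KO, 6 also stood lower in ectoderm-like cells than in the other CHGA-low cells of both libraries. GCG, glucagon, was at 7.44 CPM in KO and 64.5 CPM in HET ectoderm-like cells, and at 3.64 and 69.4 CPM in the other CHGA-low cells, so the gap was present in both. SPP1, osteopontin, a duct gene, was at 38.9 CPM in KO and 363 CPM in HET ectoderm-like cells against 698 and 1997 CPM in the others. NTS, neurotensin, was at 36.0 and 248 CPM against 254 and 808 CPM. NEFM and NEFL, neurofilament subunits, were at 0.220 and 0.289 of HET in the ectoderm-like cells and at 0.364 and 0.425 in the others. ONECUT2 and RNASE1 were at 0.338 and 0.309 of HET, against 0.697 and 0.744 in the others. LUM stood higher in ectoderm-like cells than in the others of both libraries, at 9.73 CPM in KO and 66.6 CPM in HET, 0.146 of the HET level (0.0845 to 0.236).

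Higher in KO were S100A9, S100A6, APOA2, CA3, SLC34A2, APCDD1, S100A4 and AREG, the last 2 by less than 2-fold (1.89 and 1.85). APCDD1, a WNT inhibitor of skin and hair follicle, was at 112 CPM in KO and 49.6 CPM in HET ectoderm-like cells (ratio 2.26, 1.90 to 2.68) and was found in 63% and 41.5% of them. CA3, a carbonic anhydrase, was at 144 and 57.6 CPM, but in the other CHGA-low cells it was also higher in KO, at 16.0 and 5.36 CPM. SLC34A2, a phosphate transporter, was at 104 CPM in KO and 41.2 CPM in HET. S100A9, a calcium-binding protein of stressed epithelium and myeloid cells, was at 164 and 29.6 CPM and found in 30% and 11.0% of cells, with 52.4% of its KO UMIs in 1 cell. With at least 5 UMIs of CXCL14, GATA3 and TFAP2A required, its log2 ratio of KO over HET was 0.76, against 2.47. For S100A6 the KO value of 99.0 CPM rested on 1 cell, which held all 173 UMIs, and the log2 ratio of 3.53 turned to -2.44 without the 8% of cells of highest doublet score. Without the cell of most UMIs in each library, AREG was at 36.3 CPM in KO and 88.6 CPM in HET (without TMM scaling), so its direction turned. In KO 1 cell held 79.7% of the AREG UMIs, 53.2% of the APOA2 UMIs and 42.5% of the S100A4 UMIs.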

How the data were processed

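The 3 libraries, made with 10x Genomics chemistry, were 1 each of KO, HET and WT. The deposited values were raw UMI counts per gene and barcode, and per the file headers Cell Ranger 6.1.2 made them. GRCh38, Cell Ranger and Seurat stand without roles in the submitters' processing notes. The annotation release and the barcode filter were not given in the sources used here. The shallowest barcode had 500 UMIs. Of 33538 genes, 33456 identifiers matched GENCODE 29.

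The rule for the cells, the comparison cells, the marker and gene lists and the tests were chosen with earlier results of these data known, so no list is independent evidence. Ectoderm-like cells and the other CHGA-low cells were summed per library, and the sums scaled to CPM with TMM factors (edgeR 4.0.16, R 4.3.3). Ratios have exact conditional intervals, levels exact Poisson intervals and shares Clopper-Pearson intervals, all at 95%, and a count of 0 was set to a floor of 3 counts in a ratio. There is no test between genotypes, because each has 1 library.

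A gene entered the counts with at least 50 CPM in 1 of the sums compared, and the 31 lists used 5 CPM. Named genes were the 5 markers with CHGA and PAX6, the 24 with the highest and 12 with the lowest ratio shared by KO and HET, 8 in each direction of KO over HET ranked by the interval bound nearest 1, list members over 5 CPM, and the 10 most variable genes among ectoderm-like cells. Clusters came from 2000 variable genes, 30 principal components, 20 neighbours and Leiden at resolution 1 (scanpy 1.11.5). Doublets were scored with Scrublet, which called none, so none were removed. On simulated Poisson sums of 3236 KO genes and 3285 HET genes, 50 genes were changed for each fold and direction. All genes changed 3-fold or 5-fold were called and no unchanged gene was. The simulation held no spread between cells and no TMM scaling. It therefore checks the calculation only and cannot show how the calls behave in real cells. Some genes of the lists and of the named sets are not reported here.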

Additional observations from a re-analysis of the deposited data

Results flagged for a closer look

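The same markers were also found together in barcodes that the rule's limits left out, in HET for each of 3 kinds of barcode and in KO for 2, against 0 in WT. Over 40000 UMIs with low CHGA, 4 of 83 barcodes of KO and 35 of 143 of HET had TFAP2B with at least 3 UMIs of CXCL14, GATA3 and TFAP2A, against 0 of 115 in WT. Their median depth was 42963 UMIs in KO and 49058 in HET. Over 20% mitochondrial UMIs, 11 of 591 HET barcodes with low CHGA had them, with a median of 3469 UMIs, against 0 of 367 in WT. Among CHGA-high cells within the quality limits, 23 of 748 HET cells had them, against 0 of 1888 in WT. These 23 had a median of 25727 UMIs, against 12578 for all HET CHGA-high cells, and the part of doublets among them was not tested. KO had 0 of 430 barcodes over the mitochondrial limit and 2 of 1279 CHGA-high cells.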

How the results depend on the processing

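No paired analysis was possible because each genotype had 1 library and no replicate numbers. Leaving out a replicate was not possible with 1 library per genotype, and the comparison with other CHGA-low cells is given for KO and HET singly. The counts of genes higher and lower in ectoderm-like cells of both libraries ranged from 216 to 266 and from 387 to 480 under plain CPM, DESeq2 size factors, removal of high Scrublet scores, stricter quality limits, a higher UMI minimum of the marker sum, other reference cells and CPM averaged per cell. A lower level filter of 10 CPM gave 720 higher and 929 lower genes, with 68 higher and 158 lower in KO over HET, and no level filter gave 4525, 1551, 1982 and 935. For KO over HET, quality limits of 3000 UMIs and 10% mitochondrial UMIs gave 10 higher genes, and thinning to 5000 UMIs, an alternative added after the data were seen, gave 14 higher and 43 lower. The share of ectoderm-like cells was 0.788% in KO and 3.83% in HET after thinning, 5.12% in HET with at least 2 TFAP2B UMIs, and, added after the data were seen, 1.42% in KO and 7.51% in HET by cluster. WT had 0 under every setting run. When the reference left out the cluster of most ectoderm-like cells, 38 named ratios of ectoderm-like over other cells moved out of their interval and 46 stayed the same. Without high Scrublet scores 45 moved, and with reference clusters weighing the same 46 moved, or 48 with that cluster also left out. A reference without cells that had TFAP2B or 3 UMIs of the other 3 genes moved 40, and CPM averaged per cell moved 23. All 84 stayed the same under plain CPM and under DESeq2 size factors. Of 884 alternative values for 94 named ratios of at least 2-fold, 4 no longer were. The log2 ratio of S100A6 in KO over HET was 3.53 and turned to -2.44 without high Scrublet scores and -2.19 with at least 5 UMIs of the 3 genes. That of S100A9 was 2.47 and became 0.76 with at least 5 UMIs, and that of ONECUT2 was -1.56 and became -0.96 without high Scrublet scores. The neural crest list median in HET was 1.64 and became -0.26 with reference clusters weighing the same. TP63 and HAND1 UMIs were absent from most ectoderm-like cells. With thinning to 5000 UMIs the TP63 share fell from 34% to 12% in KO and from 31.1% to 11.3% in HET. The part of depth in the cells without these UMIs was not tested. PAX6 UMIs were also absent from most ectoderm-like cells. Thinned to 5000 UMIs, PAX6 was found in 0% of KO and 1.04% of HET ectoderm-like cells, against 44.3% and 43.9% of CHGA-high cells.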

Other observations

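Genes of stress and metabolic groups moved in both directions between ectoderm-like cells and the other CHGA-low cells. Of all genes at 5 CPM, 11.6% were at least 2-fold higher and 14.7% lower in KO, and 9.5% and 11.8% in HET. Of 11 detected hypoxia and glycolysis genes, 7 were at least 2-fold lower in KO and 7 in HET, including VEGFA at 0.199 and 0.269 of the others and NDRG1 at 0.102 and 0.256, while the glucose transporter SLC2A1 was 3.47-fold and 3.82-fold higher. Of 10 detected interferon and HLA genes, 4 were lower and 2 higher in KO, and 5 lower and 1 higher in HET. The 1 of 10 higher in HET was near the share of all genes. B2M, the light chain of class I antigen-presenting molecules, was at 0.378 of the others in KO and 0.462 in HET, while IFI6, an interferon-induced gene, was 2.80-fold and 2.87-fold higher. Of 12 immediate early and stress genes, 6 were higher and 1 lower in KO, and 5 higher and 1 lower in HET. The immediate early genes FOS, FOSB, EGR1 and IER2 were 2.85-fold to 3.57-fold higher in KO and 2.36-fold to 2.75-fold higher in HET. The integrated stress factor DDIT3 was lower, at 0.210 and 0.382.

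Among the 579 ectoderm-like cells with at least 5000 UMIs, thinned to that depth, the 10 genes with the highest variance over mean were S100A9, CCL20, MALAT1, S100A6, NTS, HIST1H4C, GSTA1, APOA2, CXCL14 and APOE. CCL20, a chemokine of inflamed epithelium, had 0 UMIs in KO and 122 in HET, of which 79.5% were in 1 cell. HIST1H4C, a replication histone, was found in 74% of KO and 76.8% of HET thinned cells, and CXCL14 in 72% and 82.0%.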
